A study of Mus musculus with 2 samples.

Results

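Trimethylation of histone H3 at lysine 27 (H3K27me3) was read over 10 T-box genes in mouse embryonic stem cells: T, Eomes, Tbx1, Tbx2, Tbx4, Tbx5, Tbx6, Tbx15, Tbx18 and Tbx20. The genes were taken by name, with earlier results of these data known. Other T-box genes, some of which also act in development, are described further below. The 10 are among the 21755 protein-coding genes annotated on the autosomes and the X chromosome. Peaks were read within 1 kb and within 5 kb of each annotated 5′ end and over each gene body, and Tbx2 and Tbx4, which are close together on chromosome 11, were also read as 1 neighbourhood.

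The study is a histone ChIP-seq experiment, in which chromatin is cut and the fragments that an antibody to a histone mark pulls down are sequenced. It holds a single group of 2 biological replicates of E14TG2a.4, a male embryonic stem cell line from mouse strain 129/Ola that the labels place at the embryonic stage at an age of 3.5 day. The labels give no treatment and no genetic change, and they do not say how the 2 cultures were kept apart. With 1 group there was no condition to compare and no test was run. The counts and medians of the 10 genes are therefore set beside those of all protein-coding genes as a description, with both replicates given.

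H3K27me3 is placed by Polycomb repressive complex 2 and is a mark of genes that are kept silent but can later be switched on. In embryonic stem cells it lies over many genes for transcription factors of the embryo, often at starts rich in CG dinucleotides. T-box proteins are transcription factors that share a DNA-binding domain, the T-box, and direct the formation of mesoderm, endoderm, heart, pharynx and limbs.

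Replicate 1 held 63651 peaks over 53.6 Mb and replicate 2 held 98582 peaks over 58.4 Mb. The read depth behind the peaks is unknown, since the lists hold no counts. Each peak carries a signal value as the authors deposited it, on a scale that is not stated. Its median over all peaks was 4.66 in replicate 1 and 4.32 in replicate 2. It is therefore used here to rank peaks within a list. Ratios between the 2 lists are given only as a description. In such a bulk sample, a mark on a part of the cells and a weaker mark on all of them cannot be told apart. A gene is called marked where a peak reached into the window from 1 kb before to 1 kb after its 5′ end in both replicates, by at least 1 base. The stem cell genes Pou5f1, Nanog, Sox2, Klf4 and Zfp42 and the housekeeping genes Gapdh and Actb had no peak there in either replicate. Of the 5 fibroblast markers Col1a1, Col1a2 and Thy1 were marked and Col3a1 and Acta2 were not, and all 4 primitive endoderm markers (Gata6, Sox17, Sox7 and Pdgfra) were marked.

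The sequences below were picked for their rank, for a missing peak or for a gap, so they do not represent the 10 genes. T had the highest mean rank of signal among the marked genes, Tbx6 had no peak, the Tbx18 sequence holds a gap between peaks at the start itself, and the Tbx4 sequence holds such a gap at a start inside the gene. Each runs 5′ to 3′ along the gene's strand from 250 bases before the start to 50 bases from the start on, is taken from RefSeq on build GRCm38.p6, and has its CG dinucleotides in capitals. The RefSeq table matched 7 of the 10 genes.
T, chr17:8434173-8434472, plus strand: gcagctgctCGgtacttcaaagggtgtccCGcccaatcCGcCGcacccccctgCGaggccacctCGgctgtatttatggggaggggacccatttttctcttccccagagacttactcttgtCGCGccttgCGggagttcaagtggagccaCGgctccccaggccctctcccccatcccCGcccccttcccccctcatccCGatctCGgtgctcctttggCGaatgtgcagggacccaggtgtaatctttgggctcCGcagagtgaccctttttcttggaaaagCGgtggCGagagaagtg
Tbx6, chr7:126781233-126781532, plus strand: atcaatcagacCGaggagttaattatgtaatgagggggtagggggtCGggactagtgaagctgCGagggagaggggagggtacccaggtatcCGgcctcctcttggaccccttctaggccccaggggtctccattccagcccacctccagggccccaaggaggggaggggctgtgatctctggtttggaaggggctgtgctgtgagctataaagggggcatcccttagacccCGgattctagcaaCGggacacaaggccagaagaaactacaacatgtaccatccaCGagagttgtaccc
Tbx18, chr9:87731211-87731510, minus strand: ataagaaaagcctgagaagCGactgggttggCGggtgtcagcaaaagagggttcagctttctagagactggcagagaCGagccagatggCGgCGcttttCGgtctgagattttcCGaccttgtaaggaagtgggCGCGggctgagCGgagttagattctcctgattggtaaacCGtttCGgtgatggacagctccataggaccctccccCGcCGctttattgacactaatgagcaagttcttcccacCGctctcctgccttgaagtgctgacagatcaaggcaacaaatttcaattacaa
Tbx4, internal start, chr11:85896515-85896814, plus strand: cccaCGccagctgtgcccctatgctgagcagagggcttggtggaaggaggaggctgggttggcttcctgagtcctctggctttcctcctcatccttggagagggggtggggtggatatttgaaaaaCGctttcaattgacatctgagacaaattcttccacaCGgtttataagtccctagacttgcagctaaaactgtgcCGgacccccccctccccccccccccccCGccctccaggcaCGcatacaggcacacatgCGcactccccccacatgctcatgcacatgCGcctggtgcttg
All 300 bases of the T promoter lay in peaks of both replicates, and it holds 17 CG. None of the Tbx6 bases lay in a peak, and it holds 7 CG. In the Tbx18 promoter, with 15 CG, 73 bases were covered in replicate 1 and 117 in replicate 2. In the Tbx4 sequence at the internal start, with 8 CG, 170 bases were covered in replicate 1 and 177 in replicate 2. No peak of either replicate covered a run of 119 bases from 114 before to 4 after the internal start. Across the 21755 protein-coding genes, a promoter of this length holds a median of 11 CG (both strands read the same), and 94.8% hold at least one. Over the 10 T-box genes, at the GENCODE starts, the count went from 7 at Tbx6 to 28 at Tbx2, and was 17 at Tbx4.

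Of the 10 T-box genes, 9 were marked within 1 kb of the start, where 26.1% of all protein-coding genes were. The same 9 had a peak within 5 kb in both replicates (33.9% of all protein-coding genes) and a peak over the gene body in both (33.8%). Tbx6 alone had none in any of these places. All 9 had at least 50% of the 5 kb window, 10001 bases, in peaks of each replicate, which held for 7.34% of all protein-coding genes and for 28.1% of the 5679 marked ones. The median number of these bases covered in both replicates was 9063 for the 9 genes and 2937 over all 5679 marked genes. The median joined stretch around the start, in which bases covered in both replicates are linked across gaps of up to 3 kb, was 25.6 kb for the 9 genes against 4.61 kb over the 5553 marked genes that have one; with gaps of up to 1 kb it was 15.9 kb for the 9. Of the 1 kb window, which 4 of the 9 genes filled, a median of 1937 bases was covered in both replicates in the 9 genes and 1021 over all marked genes.

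**Figure D1:**
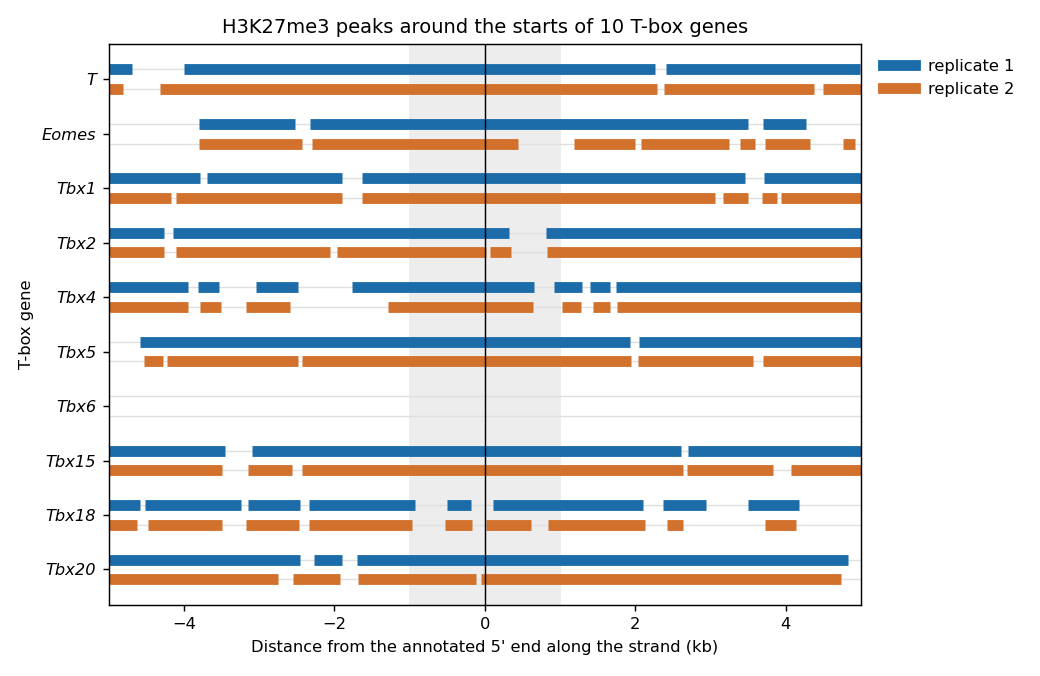
Peaks of H3K27me3 from 5 kb before to 5 kb after the annotated 5′ end (horizontal axis, kb along the gene's strand) of each of the 10 T-box genes (vertical axis), with replicate 1 in blue above replicate 2 in orange and the 1 kb window in grey. Peaks fill most of the window in both replicates at 9 genes, Tbx6 has none, and Tbx2, Tbx4 and Tbx18 show gaps in the grey window that both replicates share.

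T, Eomes and Tbx6 act early in mesoderm and endoderm. Gene positions here and below are those of GENCODE on build mm10, the build of the peaks. T (Brachyury, ENSMUSG00000062327.10, chromosome 17, 8434423 to 8442496, plus strand) is the gene of the primitive streak and notochord. Peaks covered the whole 1 kb window around its start in both replicates, and 9146 and 9291 of the 10001 bases of the wider window in replicates 1 and 2. The highest signal of a peak at the start was 14.2 in replicate 1 and 13.6 in replicate 2, and in either list 99.4% of peaks were lower. Peaks covered 75.1% of the T gene body in replicate 1 and 69.1% in replicate 2. The stretch at T ran 19.0 kb, from 11987 bases before the start to 6988 bases after it, and so ended inside the 8074-base gene; from replicate 2 alone it was 31.0 kb, and with gaps of up to 5 kb joined 28.8 kb.

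Eomes (ENSMUSG00000032446.14, chromosome 9, 118478212 to 118486132, plus strand) is needed for definitive endoderm and for the trophoblast. At its start the whole 1 kb window was covered in replicate 1 and 1446 bases of it in replicate 2, where the part from about 0.5 kb past the start on was empty. The signal was 12.6 in replicate 1 and 10.02 in replicate 2. Its gene body was covered over 83.9% in replicate 1 and 73.5% in replicate 2, and its stretch of 23.7 kb reached past the 3′ end; it was 8.07 kb where gaps of up to 1 kb alone were joined. The antisense gene Gm33460, which starts beyond the Eomes 3′ end, was marked over 247 bases in both replicates.

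Tbx6 (ENSMUSG00000030699.16, chromosome 7, 126781483 to 126785560, plus strand) directs the paraxial mesoderm that forms the somites. It was listed with 0 covered bases in the 1 kb window, the 5 kb window and the gene body in both replicates. The nearest peak was 40.8 kb from its start in replicate 1 and 41.5 kb in replicate 2, and in the authors' more permissive lists it was no closer than 32.5 kb. Tbx6 lies among closely spaced genes: Ypel3 ends 0.968 kb before it and Ppp4c, a phosphatase subunit, ends 0.305 kb past it, and neither had a peak at its start, nor did the noncoding gene Gm9967. The ratio of observed to expected CG over 500 bases on each side of the Tbx6 start was 0.330, the lowest of the 10 genes, whose median was 0.613. Tbx15, at 0.364, came next and was marked over the whole 1 kb window. Whether the ratio bears on the missing peak was not tested.

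Tbx1, Tbx5, Tbx20 and Tbx18 act in the pharynx and heart. Tbx1 (ENSMUSG00000009097.10, chromosome 16, 18580979 to 18590671, minus strand), the gene behind the heart and pharyngeal defects of DiGeorge syndrome, was covered over the whole 1 kb window at its start in both replicates. Its signal was 13.8 in replicate 1 and 13.6 in replicate 2, and the highest within 5 kb was 18.1 and 19.4. Peaks covered 96.2% of the Tbx1 body in replicate 1 and 96.5% in replicate 2, the fullest of the 10 genes. Its stretch was the longest, 64.0 kb, from 48245 bases before the start to 15715 bases after it. That stretch was 20.8 kb where gaps of up to 1 kb alone were joined, and Tbx15, at 28.0 kb, was then the longest. It also takes in the starts of Gp1bb, a platelet receptor subunit, of Sept5, a septin, of Gm49601 and of the lincRNA 4930588K23Rik. The peaks at those protein-coding starts ranked above the peak at the Tbx1 start: the signal was 18.9 and 16.5 at Gp1bb, and 19.2 and 15.0 at Sept5, in replicates 1 and 2.

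Tbx5 (ENSMUSG00000018263.11, chromosome 5, 119832668 to 119885219, plus strand) acts in the heart and the forelimb. The whole 1 kb window at its start was covered in both replicates. Its signal was 13.6 in replicate 1 and 13.5 in replicate 2. Peaks covered 37.4% of the 52552-base body in replicate 1 and 38.6% in replicate 2, and the stretch of 29.4 kb lay almost evenly on both sides of the start, from 14932 bases before it to 14455 after it. The lincRNA Gm43050, which starts 0.748 kb upstream, was covered over the whole 1 kb window in both replicates.

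Tbx20 (ENSMUSG00000031965.15, chromosome 9, 24718138 to 24774303, minus strand), a regulator of heart muscle, had the whole 1 kb window covered in replicate 1 and 1937 bases of it in replicate 2. Its signal was 12.1 in replicate 1 and 10.3 in replicate 2. The mark stayed near the start of this 56166-base gene: 10.2% of the body was covered in replicate 1 and 9.55% in replicate 2, and the stretch of 15.9 kb ended 6053 bases into the gene. Tbx20 is the reason why 8 and not 9 genes reached 10% of the body in each replicate, a share that 15.3% of all protein-coding genes reached.

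Tbx18 (ENSMUSG00000032419.8, chromosome 9, 87702800 to 87731260, minus strand) acts in the epicardium, the sinus node and the somites. Its coverage at the start was the lowest of the 9 marked genes, 1292 bases in replicate 1 and 1148 in replicate 2, and its signal was 11.5 in replicate 1 and 8.39 in replicate 2. The start base itself lay in no peak of either replicate. A gap of 183 bases, from 167 before the start to 15 after it (chromosome 9, 87731245 to 87731427), was free of peaks in both; it is part of the Tbx18 sequence printed above and holds 12 CG. A second gap of 404 bases ran from 929 to 526 bases before the start, and 29.2% of its bases are G or C. Most of the Tbx18 stretch of 16.7 kb lay upstream, with 12613 bases before the start and 4132 after it; from replicate 1 alone the stretch was 27.6 kb. Peaks covered 11.4% of the body in replicate 1 and 10.2% in replicate 2.

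Tbx15 and Tbx4, with Tbx5, act in the limbs. Tbx15 (ENSMUSG00000027868.11, chromosome 3, 99240381 to 99354259, plus strand) shapes the limb skeleton and the pattern of the coat. The whole 1 kb window at its start was covered in both replicates, with a signal of 12.6 in replicate 1 and 11.3 in replicate 2. This is the longest gene of the 10, 113879 bases, and peaks covered 17.1% of it in replicate 1 and 18.4% in replicate 2. Its stretch ran 29.5 kb, from 7631 bases before the start to 21906 after it. Of its 3 annotated transcript starts, the one 13379 bases into the gene had 1434 bases covered in both replicates and the one 56129 bases in had none. Wars2, a mitochondrial enzyme gene that ends 1.194 kb before Tbx15, starts 99.3 kb upstream and was not marked. The 1 kb window at the Wars2 start had 173 covered bases in replicate 2 alone. The 3′ part of the Wars2 body did carry peaks in both replicates, at 99234237 to 99236931 in replicate 1 and 99234285 to 99236883 in replicate 2.

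Tbx4 (ENSMUSG00000000094.12, chromosome 11, 85886422 to 85916097, plus strand) acts in the hindlimb and the lung. Its start had 1734 bases covered in replicate 1 and 1638 in replicate 2. The signal at the start was the lowest of the 9 in replicate 1, at 7.999, and was 10.4 in replicate 2. The main peak of Tbx4 lay further in. It ran from 1750 to 10228 bases past the start in replicate 1, with a signal of 15.6, and from 1762 to 10224 in replicate 2, with a signal of 14.2. Beyond it came the gap at the internal start whose sequence is printed above, and a further peak with a signal of 9.59 in replicate 1 and 12.7 in replicate 2. Nearer to the start, a gap of 267 bases in an intron (652 to 918 bases past the start) was free of peaks in both replicates, and 30.3% of its bases are G or C. Peaks covered 79.3% of the Tbx4 body in replicate 1 and 77.6% in replicate 2. The stretch at Tbx4 was 52.8 kb, and 14.02 kb where gaps of up to 1 kb alone were joined.

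Tbx2 (ENSMUSG00000000093.6, chromosome 11, 85832551 to 85841948, plus strand) is a repressor that keeps the atrioventricular canal of the heart from maturing into chamber muscle. Its start had 1506 bases covered in replicate 1 and 1460 in replicate 2. The signal was 16.3 in replicate 1, the highest of the 10 genes, and 10.996 in replicate 2, which was the fifth highest. Peaks covered 94.2% of the body in replicate 1 and 93.3% in replicate 2. The uncovered bases at the start formed a gap of 469 bases, from 345 to 813 past the start, that lay wholly in exons. It holds 75 CG and 81.9% of its bases are G or C, whereas the 267 bases of the Tbx4 gap hold 5 CG.

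**Figure D2:**
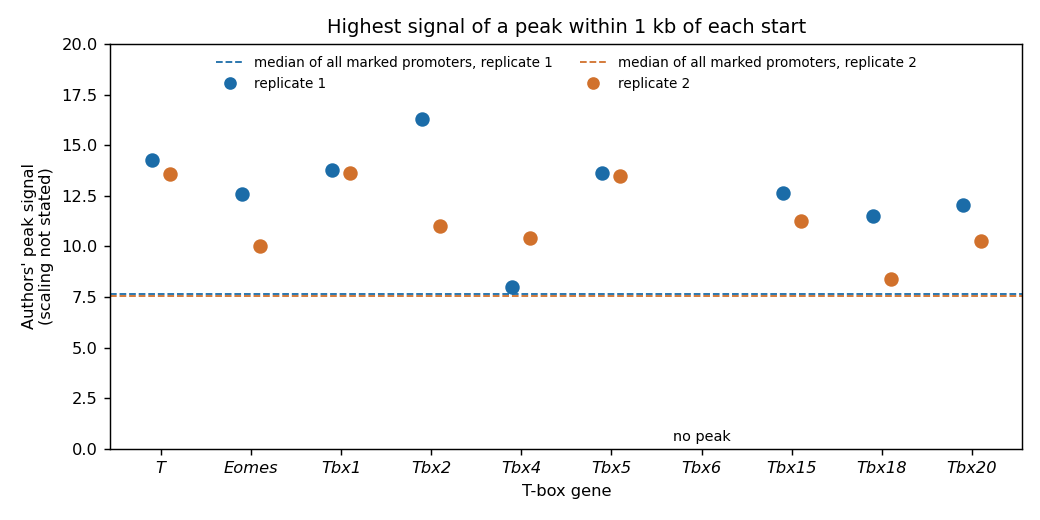
Highest signal of a peak within 1 kb of the start (vertical axis, the authors' unit with scaling not stated) for each of the 10 T-box genes (horizontal axis), with 1 point per replicate and dashed lines at the median of all marked promoters in each replicate. All 18 points lie above the median of their replicate, Tbx4 in replicate 1 by the least (7.999 against 7.67). The deposited value is lower in replicate 2 at 8 of the 9 genes, but Tbx1 and Tbx5 rank higher there within the list.

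Ranked by the mean share of the list's peaks below them, the 9 genes ran from T (99.4%) through Tbx1, Tbx5, Tbx2, Tbx15, Eomes, Tbx20 and Tbx18 to Tbx4 (93.4%). In all 8 pairs of neighbours in this order the ranges of the 2 replicates overlapped, so no gene stood apart from the next beyond the spread between replicates. The median signal at the start was 12.6 for the 9 genes and 7.67 over all marked genes in replicate 1, and 10.996 against 7.56 in replicate 2. The median log2 ratio of replicate 2 to replicate 1 was -0.17 for the 9 genes and -0.02 over all marked genes, of which 53.3% were lower in replicate 2. Tbx2, at -0.57, and Tbx4, at 0.38, stood at the ends. These ratios do not always compare the same peak. Relative to the start, the highest peak at Tbx2 ran from 814 to 9079 bases in replicate 1 and from -1963 to 12 in replicate 2. At Tbx18 it ran from 107 to 2101 bases in replicate 1 and from -2335 to -962 in replicate 2.

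**Figure D3:**
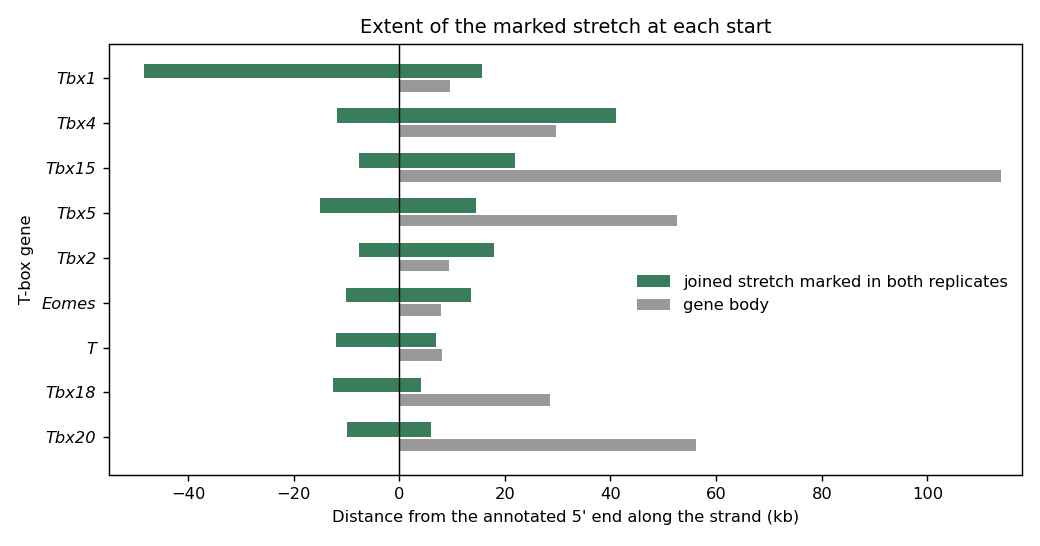
Joined stretch covered in both replicates (green) and gene body (grey) for the 9 marked T-box genes (vertical axis), as distance from the annotated 5′ end along the strand in kb (horizontal axis). The stretch passes the 3′ end at Tbx1, Tbx2, Tbx4 and Eomes and ends well inside the gene at Tbx15, Tbx5, Tbx18 and Tbx20.

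With gaps of up to 3 kb joined, the longest stretches were not at the longest genes. Tbx1 and Tbx4 had stretches of 64.0 and 52.8 kb over genes of 9693 and 29676 bases, while Tbx15 and Tbx20, with 113879 and 56166 bases, had 29.5 and 15.9 kb. At all 9 genes the stretch extended on both sides of the start, and the part upstream was between 7574 bases at Tbx2 and 48245 bases at Tbx1. Of the 27 annotated transcript starts of the 10 genes, 25 had bases covered in both replicates within 1 kb. The 2 without were the only start of Tbx6 and the internal start of Tbx15.

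By position, 8 of the 9 genes were covered at the start base in both replicates, with Tbx18 as the exception. Among all marked genes, 36.7% were covered at the start base, and 63.3% were not. The general profile had a dip at the start and its highest point at 68.3%, 900 bases downstream. Over the T-box genes the lowest point near the start lay 700 to 800 bases downstream, where 5 of the 9 were covered. The whole 1 kb window lay in peaks of both replicates at 4 of the 9 genes (T, Tbx1, Tbx5 and Tbx15), against 303 of the 5679 marked genes, or 5.34%.

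**Figure D4:**
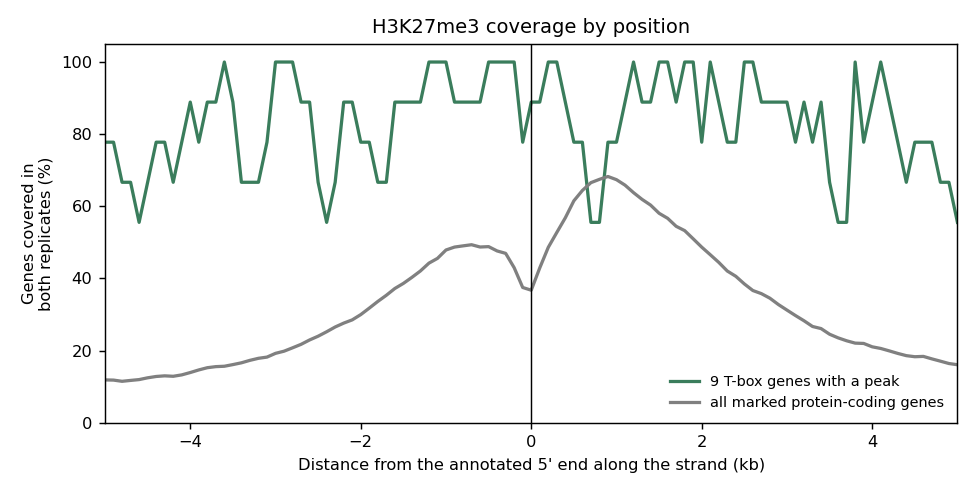
Share of genes whose base is covered by peaks of both replicates (vertical axis, percent) at each 0.1 kb from 5 kb before to 5 kb after the 5′ end (horizontal axis, kb along the strand), for the 9 T-box genes with a peak (green) and all 5679 marked protein-coding genes (grey). The grey line dips to 36.7% at the start and falls off on both sides, while the green line, in steps of 1 gene in 9, stays above it except near 0.7 to 0.8 kb downstream.

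The Tbx2-Tbx4 neighbourhood, from 5 kb before Tbx2 to 5 kb past Tbx4 (chromosome 11, 85827551 to 85921097, 93.5 kb), held 34 peaks in replicate 1 and 43 in replicate 2. Peaks covered 61.1% of it in replicate 1 and 59.8% in replicate 2, and 54.7% lay in both. The coverage fell into blocks. In both replicates together it was 95.0% over the 5 kb before Tbx2, 93.01% over the Tbx2 body, 33.5% over the 44.5 kb between the genes, 68.4% over the Tbx4 body and 49.8% over the 5 kb past it.

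Between the genes the mark broke off. The Tbx2 block reached 18.02 kb from the Tbx2 start, and a run of 24.0 kb followed, to 42.1 kb, in which no base was covered in both replicates. Within that run 23.3 kb had no peak in either replicate, the longest unbroken piece being 12.9 kb. The remaining 11.8 kb up to the Tbx4 start were covered again over 80.1% in replicate 1 and 72.9% in replicate 2, so the peaks at Tbx4 began well before the gene. In replicate 1 the highest signal was 16.3, over the Tbx2 body, followed by 15.6 both for a peak over the Tbx4 body and for one that lay mostly before Tbx2, from 4150 bases before its start to 318 after it. In replicate 2 the highest value over Tbx4 was 14.2, and a peak between the genes just past Tbx2 had 13.6. That exceeded the 10.6 of the peak from 833 to 9076 bases past the Tbx2 start. It also exceeded the 10.996 of a peak that lay almost wholly before Tbx2, from 1963 bases before its start to 12 after it.

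**Figure D5:**
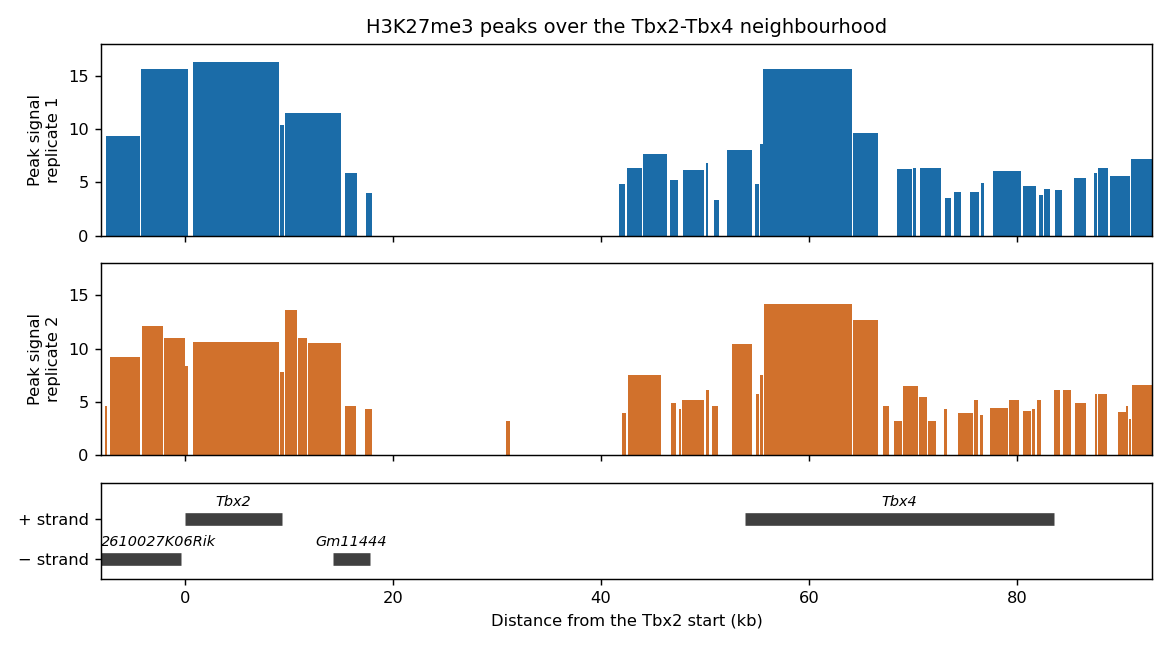
Peaks over the Tbx2-Tbx4 neighbourhood in replicate 1 (blue) and replicate 2 (orange), with bar width giving the extent of a peak and bar height the authors' signal (vertical axis, scaling not stated), and the annotated genes by strand below, against distance from the Tbx2 start in kb (horizontal axis). Blocks of high signal lie over both genes, and a run of 24.0 kb between them has no base covered in both replicates.

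The 4 annotated genes with a start in the neighbourhood were marked, but Tbx2 and Tbx4 themselves are among them. Over all protein-coding genes the share was 26.1%. The noncoding gene 2610027K06Rik starts 0.328 kb upstream of Tbx2 on the other strand and had 1594 bases covered in both replicates. Most of its window is also the Tbx2 window, so it is not a separate observation. Gm11444, with a start 17.8 kb from that of Tbx2, was marked over 565 bases with a signal of 4.03 in replicate 1 and 4.32 in replicate 2, above 27.8% and 49.5% of the peaks of the respective list. On the outer sides the coding neighbours were not marked at their starts, which lie at the ends of these genes away from Tbx2 and Tbx4. Bcas3 ends 6.49 kb before Tbx2, at 85826058. A peak before Tbx2 reached into the Bcas3 body in both replicates, beginning at 85824977 in replicate 1 and 85825420 in replicate 2. The body of Brip1, a DNA repair helicase, lies 142.0 kb past Tbx4.

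Tbx3 and Tbx5 form the other pair of T-box genes that lie together, on chromosome 5, and were set beside Tbx2 and Tbx4 after the values had been seen. The 147.9 kb between them were covered over 31.2% in replicate 1 and 30.5% in replicate 2, and 25.4% in both. The longest run not covered in both was 39.3 kb, so both intervals combined marked blocks with long gaps.

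The nearest protein-coding neighbours of the 10 genes were marked in 7 of 19 cases, with 26.1% as the share over all protein-coding genes. The 7 were Pde10a past T, Cmc1 upstream of Eomes, Gp1bb beside Tbx1, Gm11444 beside Tbx2 and Tbx4, Tbx3 beside Tbx5, Nt5e beside Tbx18 and Dpy19l2 past Tbx20. Nt5e, an ectonucleotidase gene 595.9 kb from Tbx18, had a signal of 13.4 in replicate 1 and 13.0 in replicate 2, while Cmc1 had 4.66 and 4.05. Unmarked neighbours included Golga4 past Eomes, Gnb1l past Tbx1, Rbm19 past Tbx5, Spag17 past Tbx15 and Cep162 past Tbx18. In the 1 kb window at its start, T2, which ends 10.9 kb before T, had 524 covered bases in replicate 2 alone. The stretch at T nevertheless began inside the T2 body, at 8422436, where T2 ends at 8423513. Gm10181, upstream of Tbx20, had 225 covered bases at its start in replicate 1 alone. Noncoding genes that start inside one of the 10 genes or within 5 kb of it were marked in 7 of 8 cases, and the exception was Gm9967 near Tbx6. Their windows share bases with those of the T-box genes. The share over all noncoding genes was not computed, so this count is no result about them.

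Of the other 7 T-box genes 3 were marked, where 26.1% of all protein-coding genes were. The 10 genes above were chosen with earlier results of these data known, so the 2 sets cannot be compared as a result. Tbr1, a gene of cortical neurons, had 1051 and 1010 bases covered at the start in replicates 1 and 2 and a signal of 12.3 and 12.1. Tbx3, which acts in limb and mammary gland and is also expressed in embryonic stem cells, had 1060 and 920 bases and a signal of 9.73 and 9.25. Tbx21, the gene of T-bet in T helper cells, had 1870 and 1929 bases and a signal of 10.4 and 11.6. Tbx19, which acts in pituitary cells that make Pomc, had 474 bases covered in replicate 2, with a signal of 4.05, and none in replicate 1.

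Tbx10, Tbx22 and Mga had no peak within 5 kb of the start in either replicate. Tbx22, a palate gene on the X chromosome, had peaks over its body, 3 in replicate 1 and 2 in replicate 2, the nearest 9.57 and 9.64 kb from its start. Tbx10 had 1 peak over its body in replicate 2 alone. Mga, whose product dimerises with Max and belongs to a variant Polycomb complex, had none over its body. The ratio of observed to expected CG was 0.873 at Mga and 0.0974 at Tbx22. Over all 9 marked genes of the main set the median was 0.622, beside 0.634 for all marked genes and 0.558 for all protein-coding genes.

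Among 30 genes known to work upstream, beside or downstream of T-box factors, 21 were marked, where 26.1% of all protein-coding genes were. This list too was chosen with earlier results of these data known. The 4 with the highest mean rank of signal were Pax9, a gene of the pharyngeal pouches, Pitx1, a hindlimb regulator acting with Tbx4, Fgf8, a ligand of the streak and limb ridge, and Nkx2-5, the cardiac partner of Tbx5 and Tbx20. Their signal in replicates 1 and 2 was 14.2 and 15.9 at Pax9, 17.4 and 13.2 at Pitx1, 13.97 and 14.2 at Fgf8, and 14.8 and 13.0 at Nkx2-5.

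The 9 partners without a peak at the start in either replicate were the ligands Nodal and Fgf10, the signal transducers Smad2 and Foxh1, the Tbx6 cofactor Ripply1, the cardiac targets Nppa and Gja5, and the factors Mef2c and Sall4. Foxh1 and Smad2 carry the Nodal signal that induces Eomes. Nppa, for atrial natriuretic peptide, and Gja5, for connexin 40, are classic targets of Tbx5. Fgf10 and Mef2c had a peak in both replicates at another annotated start. Smad3, by contrast with Smad2, was marked, over 1300 bases in replicate 1 and 656 in replicate 2, with a signal of 5.48 and 8.10; it was named after its values were seen.

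Of the genes that work with Tbx6 some were marked, while its cofactor Ripply1, like Tbx6 itself, had no peak at the start in either replicate. Dll1, the Notch ligand of the presomitic mesoderm, had 1767 and 1638 bases covered in replicates 1 and 2, and Mesp2, a somite boundary gene, had 1880 and 1815. Msgn1, another presomitic factor, had 524 and 1249 bases with a signal of 4.66 and 4.92, above 49.03% and 67.2% of the peaks of the respective list. Ripply2, Ripply3, Dll1, Mesp2 and Msgn1 were also named after their values were seen.

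The genes most like a T-box gene in their pattern of coverage were sought over 20 values, the covered share of 10 bins of 1 kb around the start in each of the 2 replicates. The measure is the mean absolute difference in percentage points, with no test. For T the nearest were Bcan (2.71) and Wnt5a (4.01), for Tbx20 Nol3 (3.15) and 4930412O13Rik (3.96), for Tbx5 Wnt5a (3.25) and Hoxc12 (3.35), and for Tbx15 Zfp503 (3.82) and Ecel1 (3.93). The median difference to all genes was between 92.2 for T and 94.0 for Tbx15. Only 33.9% of all protein-coding genes had a peak within 5 kb in both replicates. This median therefore mainly reflects the T-box gene's own coverage and gives no scale for the closeness of a match. These 4 are the ones with the closest matches: the nearest gene differed by 4.295 at Tbx2, 4.465 at Tbx1, 11.03 at Tbx18, 11.35 at Tbx4 and 11.5 at Eomes, and the median to all genes was as low as 68.35 at Tbx18. For scale, 150 genes, or 0.689%, had at least 90% of the 5 kb window covered in both replicates together.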

How the data were processed

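H3K27me3 ChIP-seq peaks of 2 biological replicates of E14TG2a.4 were analysed. Per the file headers, the authors called peaks on mm10 for each replicate (pseudoreplicated and relaxed lists) and for both together (replicated lists of 2 runs). The aligner, caller, thresholds and control were not given in the sources used here. The deposited lists hold a signal per peak, whose scaling is not stated, and a −log10 q per peak. No control, counts or depth were analysed here.

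Peaks of the pseudoreplicated lists were merged within a replicate and intersected with GENCODE release 21 genes (Python 3.11.15, NumPy 2.4.6, Matplotlib 3.10.9). Windows reached 1 kb or 5 kb each side of the gene 5′ end. The ratio of observed to expected CG used 500 bases each side. The interval code was tested on simulated data. Alternatives were windows of 0.5 and 2.5 kb, 50% of the window, any transcript start, 10% of the body, −log10 q of at least 2, joining gaps of 1 or 5 kb, other lists and single replicates.

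The members, lists and rules were chosen with earlier results of these data known. Named were all T-box genes, their nearest coding neighbours, genes of the Tbx2-Tbx4 neighbourhood, unmarked partners with the 4 highest marked ones, and the 2 most alike genes of 4 members. Sequences were of the members with the highest and lowest rank and of the one without a peak, with Tbx18 added after its gap was seen and Tbx4 shown at its RefSeq start.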

Additional observations from a re-analysis of the deposited data

How the results depend on the processing

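Every alternative that could be computed left 9 of the 10 T-box genes marked at the start, where 13.96% to 34.2% of all protein-coding genes were, 9 with a peak within 5 kb, and 8 or 9 with a peak over the body. The other T-box genes marked were 2 to 4, and the partners 19 to 23. The share of the Tbx2-Tbx4 neighbourhood covered, 54.7% in both replicates, was 56.6% in the relaxed lists, 67.6% and 67.9% in the replicated lists of the first and second run, and 59.8% to 61.1% in single replicates. The median over the 9 genes of the signal's percentile among all peaks of the list, 98.2, was 99.2 for the highest peak within 5 kb and 99.3 in the relaxed lists. Among marked genes alone the median percentile was 90.5 in replicate 1 and 81.9 in replicate 2. The median stretch of 25.6 kb became 15.9 kb with gaps of up to 1 kb, 28.8 kb with gaps of up to 5 kb, and 27.6 to 29.9 kb in single replicates. The median log2 ratio of replicate 2 to replicate 1, -0.17, was -0.14 within 5 kb and -0.23 in the relaxed lists. For single genes, 97 values of covered bases or stretch length moved and 221 did not. Tbx19, with 0 bases covered in both replicates, had 563 in the replicated list of the first run and 474 without replicate 1. No paired analysis was possible because there is 1 group. With unknown depth, a start without a peak is a start where none was called, and its level of the mark was not measured.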
